A study of Rattus norvegicus with 6 samples.

Results

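The E2F transcription factors and the retinoblastoma (pocket) proteins form the switch between G1 and S phase. E2f1, E2f2 and E2f3 activate genes of DNA replication. E2f4 and E2f5 hold the same genes down when they are bound by a pocket protein, and E2f6, E2f7 and E2f8 repress without one. Pocket proteins (Rb1, Rbl1 and Rbl2) bind E2F factors and hold their target genes down until cyclin-dependent kinases phosphorylate them. In the arterial wall this switch stands between the quiescent contractile VSMC and the dividing one.

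The 10 genes E2f1 to E2f8, Rb1 and Rbl1 were chosen by symbol from the 22574 genes of the count table, with the fold changes and adjusted p-values of the comparison described here already known, and all 10 had enough counts to be tested. Their differences between the groups are therefore a description, with no test read from them. RNA-seq was performed on RASMCs, which are primary aortic smooth muscle cells of male Sprague-Dawley rats. Of the 6 libraries, 3 held cells stimulated with citrullinated histone H3 together with double-stranded DNA (H3CIT+dsDNA, called CitH3+dsDNA in the labels), which are released together in extracellular traps, and 3 held control cells given bovine serum albumin. No genetic change is named for either group, and the length of the exposure is not given in the sources used here. Replicates in the cell culture work were wells and did not come from different rats. Errors and p-values here thus describe wells and libraries, and not how rats differ. The methods give supplier catalogue numbers for H3CIT and for dsDNA, so the cells were given reagents and not traps released by cells. This comparison asks which genes respond in VSMCs to these components of extracellular traps.

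Library totals lay between 17573905 and 18742395 counts. Levels are given as raw counts and as CPM, edgeR's measure of a count relative to its TMM-scaled library size, and calls were made at adjusted p values below 0.05 in edgeR's quasi-likelihood fit to all 12591 genes that passed the filter on low counts. By that rule 2.2% of all genes tested were called, 1.94% higher and 0.262% lower with H3CIT+dsDNA. Differences are given as log2 fold changes of H3CIT+dsDNA over control (log2FC), with the standard error (SE) or 95% interval. All 9 smooth muscle markers examined were counted in all libraries. Their summed level was 8520 to 9043 CPM with H3CIT+dsDNA and 11271 to 12105 CPM in controls, and 4 of the 9 (Acta2, Tagln, Cnn1 and Smtn) were called lower by edgeR. Cald1 and Myh11 had log2FC of 0.16 and 0.06, and Des, Lmod1 and Myl9 had log2FC between -0.06 and -0.05, all 5 not called. DESeq2 called Cald1 in addition, and limma-voom did not call Smtn. Endothelial markers summed to 8.44 to 8.91 CPM against 9.81 to 10.5 CPM in controls, and fibroblast markers to 2.92 to 4.36 CPM against 2.80 to 5.49 CPM. Macrophage and leukocyte markers summed to 72.2 to 74.5 CPM with H3CIT+dsDNA and to 73.4 to 76.5 CPM in controls. No marker of these 3 other cell types was called by edgeR, DESeq2 or limma-voom. Kdr, Ptprc, Itgam and Mrc1 had at most 1 count in any library, and other markers of the same lists were counted in all of them. Cd14 had 921 to 994 counts per library, Csf1r 296 to 374 and Cdh5 73 to 105. Cd14 and Csf1r made up most of the macrophage and leukocyte sum. The part of these markers in the values below was not tested. In bulk RNA of this kind, more cells with a transcript and more of it per cell cannot be told apart.

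E2f3 was the one gene of the 10 that was called, and it was higher with H3CIT+dsDNA. The other 9 genes, which cover both remaining activators, all 5 repressors and the pocket proteins Rb1 and Rbl1, were not called. Their log2FC lay between -0.72 and 0.27, against 2.0 for E2f3. The lowest of them, that of E2f2, lay between -1.07 and -0.36 when 1 library was left out. The median over the 10 genes was 0.02 on the log2 scale and over all genes tested -0.0013. The background share of 2.2% called stands beside this count of 1 in 10, and nothing is read from it, because the genes were picked with the comparison known.

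**Figure D1:**
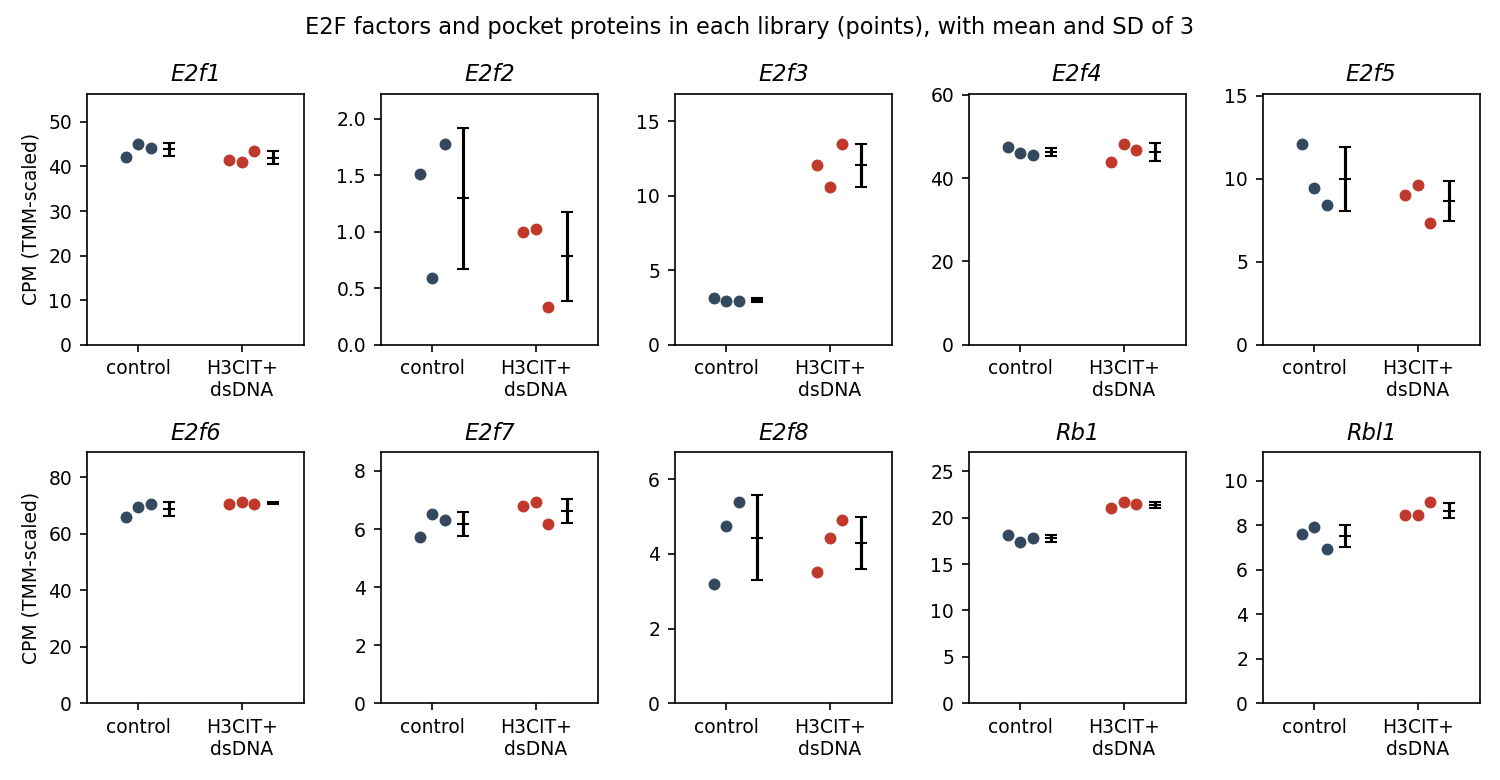
Level of each gene in CPM (TMM-scaled) in the 3 control libraries (dark points) and the 3 H3CIT+dsDNA libraries (red points), with the mean and SD of each group beside them; every vertical axis starts at 0 and has its own range. The groups of E2f3 are far apart at 12.1 and 3.0 CPM, those of Rb1 and Rbl1 lie close but do not overlap, and those of the other 7 genes overlap.

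E2f3 is classed with the activator E2Fs, which drive entry into S phase. Counts per gene do not separate the products of E2f3. Its counts were 219, 187 and 245 in the H3CIT+dsDNA libraries and 56, 55 and 54 in the controls. The lowest stimulated library thus stood well above the highest control, and the controls were almost equal. In CPM the level was 12.1 ± 1.44 with H3CIT+dsDNA and 3.0 ± 0.119 without (SD, n = 3 per group), and the log2FC was 2.0 (SE 0.14) with a 95% interval from 1.71 to 2.30. The level was 4.01-fold that of controls, with an interval from 3.28 to 4.92. In the 6 fits that each left out 1 library, the log2FC stayed between 1.91 and 2.09. Ranked by log2FC over all genes tested, E2f3 was the 44th highest rise.

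The control counts of E2f3 lay closer together than the usual size of counting noise. Their SD was 1 count, where the square root of the mean of 55 is 7.42. In the H3CIT+dsDNA libraries the SD was 29.1 counts around a mean of 217, whose square root is 14.7. Bcl2l11, which encodes the pro-apoptotic protein BIM, and Chek2, a checkpoint kinase gene, had the same control counts of 56, 55 and 54 in the same libraries, and 3 genes in all had them. Chek2 was named after its values had been seen. Control counts that are 3 consecutive whole numbers were found in 18 of 49 genes (36.7%) that were called with a log2FC beyond 0.5 in size and had a mean control count from 20 up to 100. Among genes of the same count range that were not called, 20 of 1969 (1.02%) had them. Control counts equal to those of another gene of this range were found in 10 of the 49 called genes (20.4%) and in 48 of the 1969 not called (2.44%). A call depends on the spread within groups, so called genes and genes not called are not alike in that respect. The origin of these patterns was not tested. The fold, SE, rank and call of E2f3 all rest on these control counts.

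**Figure D2:**
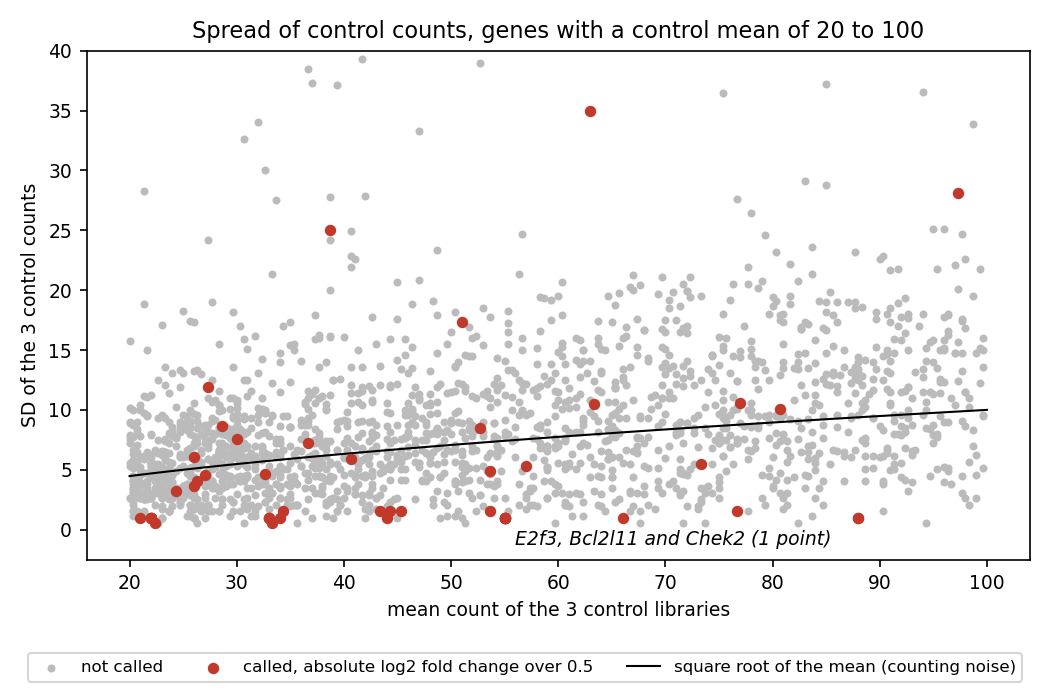
SD of the 3 control counts against their mean for genes with a mean control count from 20 up to 100. Grey points are genes not called, red points are genes called with a log2FC beyond 0.5 in size, the line is the square root of the mean, and 26 genes with an SD above 40 lie outside the axis. E2f3, Bcl2l11 and Chek2 share 1 point at a mean of 55 and an SD of 1, among red points that lie far below the line.

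No other counted gene overlaps E2f3 in the later rat assembly GRCr8. Mboat1, an acyltransferase gene and its nearest counted neighbour on one side, had counts of 232, 225 and 223 with H3CIT+dsDNA against 244, 254 and 276 in controls. Cdkal1, a tRNA-modifying enzyme gene on the other side, had 208, 240 and 216 counts against 235, 231 and 215. Neither neighbour was called (log2FC -0.16 and -0.01, adjusted p = 0.422 and 0.983 from edgeR). For Mboat1 the stimulated libraries lay below the controls in CPM, and for Cdkal1 the groups overlapped.

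The promoters of E2f3 and of Rb1 are shown because these genes had the largest rises among the 10. RefSeq promoters of GRCr8, from 250 bases before to 50 bases after the transcript start, were matched by symbol for 5 of the 10 genes (E2f3, E2f6, E2f7, Rb1 and Rbl1). They were searched on both strands for the E2F core, spelled as TT, then 2 bases that are C or G, then CGC. Capitals mark the core. On the opposite strand it reads reversed and complemented.
E2f3, chr17:34810166-34810465, plus strand: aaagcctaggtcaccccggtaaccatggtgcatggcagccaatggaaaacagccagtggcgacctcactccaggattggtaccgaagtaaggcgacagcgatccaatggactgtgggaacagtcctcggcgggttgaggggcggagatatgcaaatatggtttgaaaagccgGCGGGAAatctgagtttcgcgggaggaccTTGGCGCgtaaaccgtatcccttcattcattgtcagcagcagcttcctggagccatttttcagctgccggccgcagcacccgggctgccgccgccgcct
Rb1, chr15:54911808-54912107, minus strand: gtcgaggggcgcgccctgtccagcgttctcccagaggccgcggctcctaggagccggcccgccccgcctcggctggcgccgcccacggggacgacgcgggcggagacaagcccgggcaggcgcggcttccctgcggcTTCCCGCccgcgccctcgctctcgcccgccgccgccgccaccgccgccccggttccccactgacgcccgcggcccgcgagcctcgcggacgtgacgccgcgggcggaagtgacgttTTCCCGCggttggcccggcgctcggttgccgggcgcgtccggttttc
The E2f3 promoter held 2 cores, TTCCCGC on the opposite strand 78 bases before the start and TTGGCGC on the gene's own strand 49 bases before it. It also held the CHR core TTTGAA, an element of genes bound by the MuvB complex, 90 bases before the start. The Rb1 promoter held TTCCCGC 113 bases before the start and again 4 bases after it. E2f7 had 3 cores, Rbl1 had 1 and E2f6 had none in this window. At least 1 core was present in 16.5% of the 10510 promoters of genes tested, and 2 or more in 1.89%, and the CHR core was present in 1260 of them. A match is a description of the letters and not of binding. E2f7 and Rbl1, which were not called, held cores as E2f3 did.

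Neither of the other activators was called. E2f1, the founding activator of the family, had counts of 752, 722 and 791 with H3CIT+dsDNA against 752, 837 and 821 in controls, so that the groups overlapped. Its levels were 42.0 ± 1.38 and 43.8 ± 1.53 in CPM (SD, n = 3 per group), and the 95% interval of its log2FC reached from -0.18 to 0.05. E2f2 was the least counted of the 10, with 18, 18 and 6 counts against 27, 11 and 33. Its log2FC was -0.72, with an interval from -1.72 to 0.26. Its count SDs were 6.93 with H3CIT+dsDNA and 11.4 in controls, where the square roots of the means are 3.74 and 4.86. The log2FC was -0.36 without H3CIT+dsDNA replicate 3, -0.42 without control replicate 3 and -1.07 without control replicate 2.

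**Figure D3:**
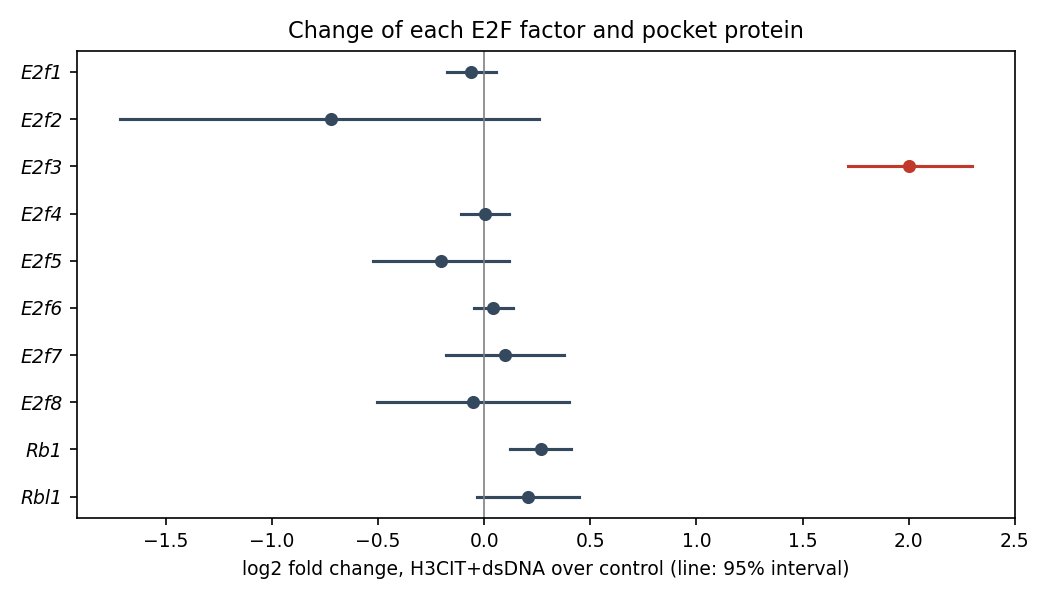
Log2 fold change of each gene, H3CIT+dsDNA over control, as a point with its 95% interval as a line; red marks the gene called over all genes tested. E2f3 stands at 2.0 with an interval from 1.71 to 2.30, and the intervals of the other 9 genes reach 0.45 at most.

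For the repressor E2Fs that need a pocket protein, the groups overlapped and neither gene was called. E2f4, a partner of p107 and p130, had counts of 797, 850 and 850 against 845, 854 and 844, log2FC 0.00172 with a 95% interval from -0.11 to 0.11. Its control SD was 5.51 counts, where the square root of the mean is 29.1. E2f5, its close relative, had 164, 170 and 133 counts against 216, 175 and 156. The lowest of these was a stimulated library and the highest a control, with the others interleaved, and the interval ran from -0.52 to 0.12.

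Of the repressors that act without pocket proteins, E2f6 works within a Polycomb-type complex. Its counts were 1278, 1254 and 1283 with H3CIT+dsDNA and 1179, 1288 and 1311 in controls, with an interval of the log2FC from -0.05 to 0.13. E2f7 and E2f8 are the atypical members, which bind DNA without a DP partner and hold E2F target genes down late in S phase. E2f7 had 123, 122 and 112 counts against 102, 121 and 117 (interval -0.18 to 0.38). E2f8 had 64, 78 and 89 counts against 57, 88 and 100 (interval -0.51 to 0.40). The groups overlapped for all 3 genes. Among control wells E2f8 had an SD of 22.2 counts around a mean of 81.7.

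Both pocket protein genes of the 10, Rb1 and Rbl1, had all 3 H3CIT+dsDNA libraries above all 3 controls, by far less than E2f3. For Rbl2, which is not among the 10 and is described below, the groups overlapped. Rb1, the retinoblastoma gene itself, had counts of 381, 382 and 390 against 323, 323 and 331. In CPM this gave 21.4 ± 0.342 against 17.8 ± 0.349 (SD, n = 3 per group), 1.20-fold with an interval from 1.09 to 1.33. Rb1 was not called, and it was called when libraries were scaled by their size alone. The counts of Rb1 were also close together, with SDs of 4.93 and 4.62 counts around means of 384 and 326. Lpar6, a lysophosphatidic acid receptor gene that lies within Rb1 in GRCr8, had between 31 and 58 counts per library, and the strand setting of the counting is not stated. Rbl1, which encodes p107, had 153, 149 and 164 counts against 136, 147 and 129, with an interval of the log2FC from -0.03 to 0.45. Groups that did not overlap in CPM were found for 3 of the 10 genes (E2f3, Rb1 and Rbl1), beside 19.1% of all genes tested, 10.7% with the stimulated group higher and 8.43% with it lower. An exact two-sided permutation test of 3 libraries against 3 cannot give a p-value under 0.1 for any single gene.

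The genes that work with E2Fs or respond to them were followed in 11 lists of 113 genes, 110 of them tested. In edgeR's quasi-likelihood test 8 were called higher and 1 lower, 8.18% beside 2.2% of all genes tested, and 101 were not called. These lists, too, were chosen with earlier results of these data known. Nothing is therefore read from this share, and the values of the listed genes are a description. The median log2FC of the 110 genes was -0.02. The called genes were spread over 5 of the lists. Over all genes tested, 13.9% had an unadjusted p under 0.05 in edgeR, the share to set beside such counts below.

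**Figure D4:**
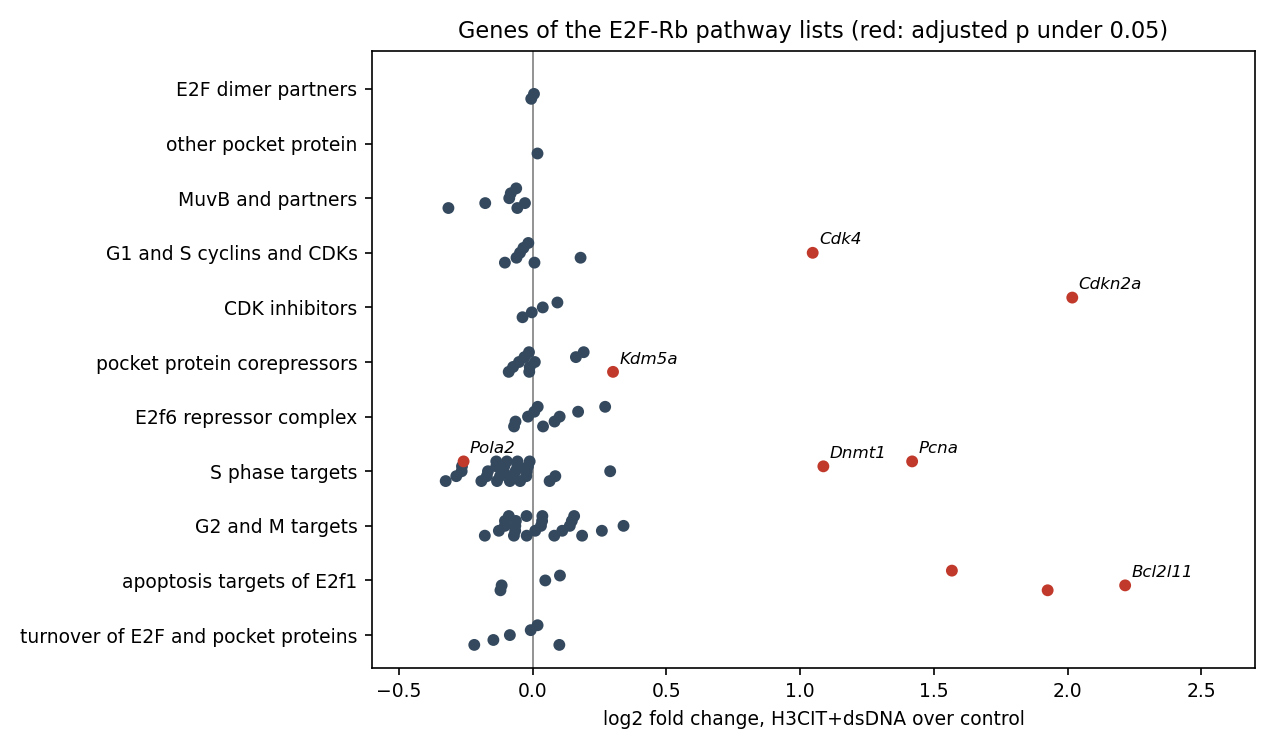
Log2 fold change, H3CIT+dsDNA over control, of the genes tested in each of the 11 lists (vertical offsets within a list carry no value). Red points were called over all genes, with names for those the text describes; 8 of the 9 red points lie to the right of 0.

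Among the dimer partners of E2Fs, Rbl2, and the MuvB core and its partners, edgeR, DESeq2 and limma-voom each called none. Tfdp1 and Tfdp2, which encode the DP proteins that dimerise with E2Fs, had log2FC of -0.01 and 0.01 (adjusted p = 0.974 and 0.995 from edgeR), with 1207, 1217 and 1252 counts of Tfdp1 against 1209, 1282 and 1271. Rbl2, which encodes the pocket protein p130, had 455, 411 and 446 counts against 412, 418 and 494 (log2FC 0.01, adjusted p = 0.958). All 7 genes of the MuvB core and its partners had log2FC below 0, from -0.31 to -0.03, and none was called, with 1 at an unadjusted p under 0.05 in edgeR. Lin9 and Lin37 were the lowest of them at -0.31 (adjusted p = 0.482) and -0.18 (adjusted p = 0.243). Of the 10 genes of the E2f6 repressor complex none was called by any of the 3 tools and 2 had an unadjusted p under 0.05 in edgeR, the nearest being Mga at 0.27 (adjusted p = 0.211) and Rybp at 0.17 (adjusted p = 0.213). Among 11 corepressors recruited by pocket proteins, Kdm5a, a histone demethylase gene first described as an RB-binding protein, was called higher. It had 1140, 1014 and 1097 counts against 809, 972 and 911, log2FC 0.30 with SE 0.06 (edgeR adjusted p = 0.0143). It was not called without H3CIT+dsDNA replicate 1 (adjusted p = 0.107), without H3CIT+dsDNA replicate 3 (0.0716) or without control replicate 1 (0.0685), nor with the replicate number as a block (0.0574), over a range of 0.00192 to 0.107 in all alternatives.

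Among the kinases that phosphorylate pocket proteins and their inhibitors, 1 gene of each list was called, both higher. Cdk4, the partner of the D cyclins, had 6600, 6720 and 6977 counts with H3CIT+dsDNA and 3200, 3363 and 3454 in controls. Its level was 377 CPM against 182 CPM, log2FC 1.05 with SE 0.04 (edgeR adjusted p = 6.05e-10). The D cyclins themselves were not called, and Ccnd1 had 7806, 7447 and 7516 counts against 7480, 7746 and 7879. Ccne2 had 1 count in 1 library and none in the other 5 and was not tested. Cdkn2a, whose products include the CDK4 inhibitor p16 and the MDM2 inhibitor ARF, had 114, 147 and 133 counts against 33, 34 and 32 in controls. The log2FC was 2.02 with SE 0.17 (edgeR adjusted p = 7.87e-06), and its control counts were consecutive whole numbers. Counts per gene do not separate the products of Cdkn2a. The 4 other CDK inhibitor genes tested had log2FC from -0.04 to 0.09 and were not called. Cdkn1a, which encodes p21, had between 3097 and 3326 counts in all libraries.

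Of the 30 S phase targets of E2F tested, 2 were called higher and 1 lower, beside 1.94% and 0.262% of all genes tested. In edgeR 8 had an unadjusted p under 0.05, beside 13.9% of all genes tested. Groups did not overlap in CPM for 11 of the 30, beside 19.1% of all genes tested. The median log2FC of the 30 was -0.09, and 25 lay below 0, where 50.6% of all genes tested did. No direction was tested over the list. Pcna, the sliding clamp of DNA replication, had 1658, 1681 and 1880 counts against 667, 666 and 656, log2FC 1.42 with SE 0.05 (edgeR adjusted p = 1.71e-09). Dnmt1, the maintenance DNA methyltransferase, had 936, 902 and 945 counts against 450, 443 and 442, log2FC 1.09 with SE 0.05 (edgeR adjusted p = 2.39e-08). Both had every stimulated library far above every control. The control counts of Pcna and of Dnmt1 lay closer together than the usual size of counting noise, as those of E2f3 did. The shares of consecutive and of shared control counts given with E2f3 cover a lower count range, without these genes. The SE and adjusted p of both genes rest on these control counts, and the origin of their closeness was not tested. The gene called lower was Pola2, a subunit of DNA polymerase alpha, with 617, 606 and 644 counts against 722, 765 and 790 and log2FC -0.26 (adjusted p = 0.0231). It was not called in any of the 6 fits with 1 library left out (adjusted p from 0.0553 to 0.116), over a range of 0.0138 to 0.116 in all alternatives. The remaining 27 genes, among them the Mcm helicase genes, Cdc6, Rrm1 and Tk1, had log2FC between -0.32 and 0.29 and were not called. DESeq2 called 5 genes of the list in place of 3, adding Mcm2 (log2FC -0.17, edgeR adjusted p = 0.0868) and Rrm2 (-0.19, edgeR adjusted p = 0.0727).

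None of the 23 G2 and M phase genes tested was called by edgeR, where 5 had an unadjusted p under 0.05, beside 13.9% of all genes tested. DESeq2 called 1 of the 23, Mki67, and limma-voom called none. Their median log2FC was 0.01 with a range from -0.18 to 0.34. Mki67, the proliferation marker Ki67, had 1230, 992 and 1053 counts against 838, 957 and 996 (log2FC 0.26, adjusted p = 0.0975 from edgeR), and Top2a, the replicative topoisomerase, had 1298, 1091 and 1229 against 1058, 1076 and 1109 (0.19, adjusted p = 0.113). The stimulated libraries of both lay above the controls once scaled to CPM. The 6 genes that control the turnover of E2F and pocket proteins were not called by any of the 3 tools, with 1 at an unadjusted p under 0.05 in edgeR and Cks1b lowest at -0.22 (adjusted p = 0.118) and Fzr1 at -0.15 (adjusted p = 0.380).

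The pro-apoptotic targets of E2f1 included the largest rise of the lists, that of Bcl2l11. Of 7 genes tested, 3 were called and all 3 were higher, beside 1.94% of all genes tested called higher. Nothing is read from this count, because the lists were chosen with earlier results known. Bcl2l11 had 281, 250 and 222 counts against the 56, 55 and 54 it shares with E2f3, log2FC 2.22 with SE 0.13 (edgeR adjusted p = 1.21e-07). Apaf1, Bbc3, Pmaip1 and Tp73 were not called, with log2FC from -0.12 to 0.10. E2f1 itself, as described above, had overlapping groups. Whether E2f1 acted on these genes here was not tested.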

How the data were processed

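RNA of RASMCs was measured in 6 libraries, 3 per group, and groups were taken from the labels. According to the methods, the authors prepared stranded mRNA libraries, mapped reads to Rnor6.0 with TopHat and counted them per gene with HTSeq. The submitters' processing notes list TopHat2 2.1.1, Cufflinks 2.2.1 and Cuffdiff. The deposited values are raw counts, not normalized, 1 column per library.

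In R 4.3.3, edgeR 4.0.16 was used to drop low counts (filterByExpr), to scale libraries (TMM) and to fit a two-sided quasi-likelihood test, whose p-values were adjusted over 12591 genes by Benjamini-Hochberg. Standard errors were derived from the unshrunken coefficient and F, and 95% intervals use the t distribution with the fitted degrees of freedom. The fits were tested on simulated data. Alternatives were DESeq2 1.42.0, voom of limma 3.58.1, other scalings and filters, robust dispersions, the replicate number as a block and fits that each leave out 1 library. The studied genes and the lists were chosen with earlier results of these data known. All 10 genes were named, with up to 4 called genes per list, or the 2 of lowest adjusted p where none was called, and further genes were named after their values had been seen. Some called genes are counted but not reported here by name. Replicates were no repeats of 1 library (chi-square per gene at least 3.38). Levels were not compared between genes, since transcript lengths were not used here.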

Additional observations from a re-analysis of the deposited data

How the results depend on the processing

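E2f3 was called in all 15 alternatives (log2 fold change 1.91 to 2.09), and it was the only one of the 10 genes called except when libraries were scaled by size alone, where 2 were called, the second being Rb1 (log2 fold change 0.29). The 9 calls in the pathway lists were between 7 and 12 over all alternatives. Of 449 values of 30 named genes, 434 stayed on their side of 0.05, 11 lost the call, 4 gained one and none reversed. The 11 fell on Kdm5a and Pola2, and the 4 on Rb1, Mki67 (DESeq2 and no filter on low counts) and Top2a (without H3CIT+dsDNA replicate 2).

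Over all genes, 277 were called, 244 higher and 33 lower. The lower genes were 51 with DESeq2, 58 with no filter and 50 with robust dispersions. With each library left out the calls ran from 164 to 357, with 147 to 300 higher and 17 to 57 lower. The lowest count came without H3CIT+dsDNA replicate 1, and 184 came without control replicate 1, where 154 were higher. The cause was not tested.

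Adding the replicate number as a block gave 212 called genes, 7 of them in the pathway lists, and Kdm5a (adjusted p = 0.0574 from edgeR) and Pola2 (0.0571) were not. The labels give no pairing, and deviations of same-numbered libraries correlated at -0.0458, 0.00452 and 0.0355 across genes. The value of E2f2, with 6 to 33 counts per library, moved most among the 10 genes, from -0.72 to between -1.07 and -0.36 with 1 library left out.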
